A study of Mus musculus with 23 samples.

Results

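The comparison described here is the effect of deleting Bcl6 in type 2 conventional dendritic cells (cDC2) sorted from mouse spleen. It rests on 8 of the 23 Mouse Gene 1.0 ST arrays in the series, 5 from cKO mice, in which Bcl6 was conditionally deleted, and 3 from wild-type (WT) mice. The others are of type 1 conventional dendritic cells (cDC1, 4 cKO and 3 WT) and plasmacytoid dendritic cells (pDC, 5 cKO and 3 WT). The effect in cDC2 was set against theirs. Their arrays also entered the filter on level and the shared estimate of spread behind every standard error and p-value. All arrays were hybridised with RNA of sorted spleen cells. The age and strain of the mice, the sort gates and the Cre line that removed Bcl6 are not stated in the labels. It is therefore not known which other cells of the cKO mice had lost the gene. The arrays were chosen by their labels and the genes by level alone: 12157 genes of 19938 with a probe set of their own passed, the rule being a value above the array median on at least 3 arrays.

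Dendritic cells sample antigen, move to T cell zones and prime T cells. cDC2 are the CD11b- and SIRPA-expressing branch, which depends on IRF4 and, for its spleen-resident ESAM-high form, on Notch2 signalling, and primes mainly CD4 T cells. BCL6 is a zinc finger protein that represses transcription by recruiting corepressors such as NCOR and BCOR to DNA, and is best known for its part in follicular helper T cells and in B cells of the germinal centre. Its motif resembles that of STAT factors, and genes induced by STAT5, such as the SOCS family, are among its classic targets in lymphocytes.

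All levels below are log2 of the deposited intensity, a gene-level array brightness, and each difference is cKO minus WT on that log2 scale, with its standard error (SE). A gene is called where limma's two-sided moderated test, adjusted by Benjamini-Hochberg over the 12157 genes, gave an adjusted p below 0.05, and only such genes are said to have risen or fallen. Values per array are given for cKO arrays 1 to 5 and then WT arrays 1 to 3. No label says whether each array is a different animal, and p-values then cover only the spread between these samples. In a sorted bulk sample, fewer cells of a type and less RNA per cell cannot be told apart. The number of arrays, 5 against 3, limits the precision of every value.

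The arrays parted by more than genotype. Their array medians and upper quartiles fell into 3 sets that no label names: set A held cKO arrays 1 and 2 and WT array 1, set B held cKO array 3 and WT array 2, and set C held cKO arrays 4 and 5 and WT array 3. Over the 8 cDC2 arrays, set took 64.5% of the sum of squares and genotype 19.3%, and differences within each set are plotted for the called genes and printed for some of them. WT array 1 also stood apart in sex-linked genes: Xist, the X-inactivation RNA, was at 11.28 there and between 3.90 and 4.59 on the other 7, while the Y-linked Eif2s3y was at 3.09 there and between 6.44 and 7.23 on the others. The part of this in the results was not tested, but counts without that array are given. The Bcl6 probe set read 8.40, 8.61, 7.51, 7.51 and 7.97 in cKO, against 7.83, 7.06 and 7.02 in WT. The groups overlapped, with a difference of 0.69 ± 0.33 (adjusted p = 0.756 by limma). Which part of the transcript the probe set reads is not stated in the labels, so this value does not check the deletion.

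**Figure D1:**
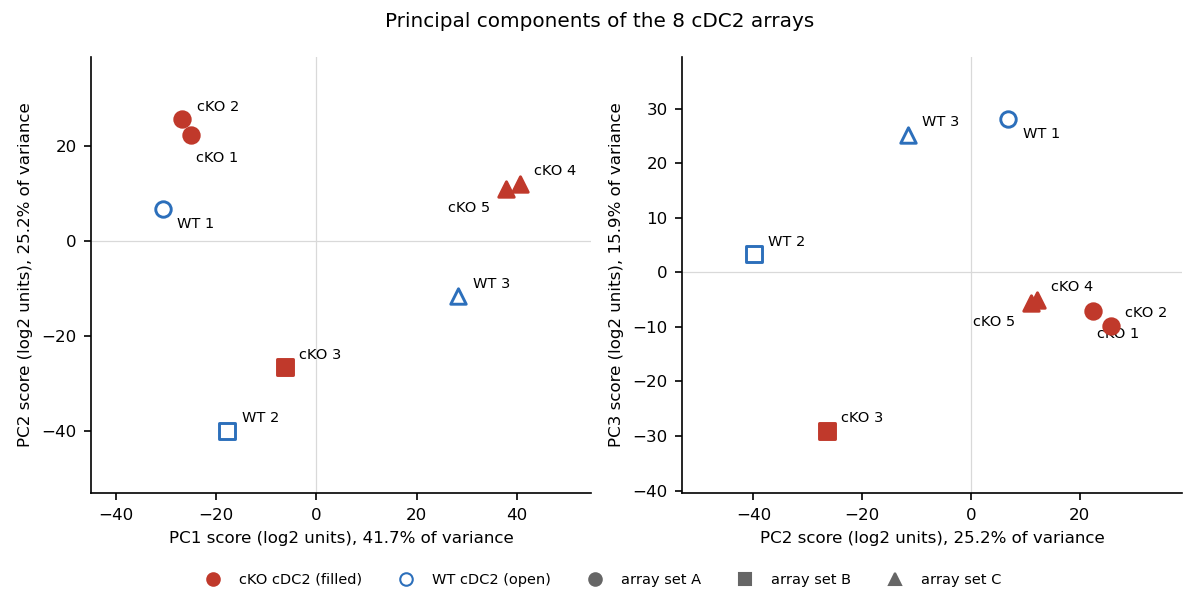
Scores of the 8 cDC2 arrays on the first 3 principal components of log2 intensity over 12157 genes, cKO filled and WT open, with the marker shape giving the array set. The first component (41.7% of variance) and the second (25.2%) part the sets; on the third (15.9%) all 5 cKO arrays lie below all 3 WT arrays.

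Markers of the sorted population gave a mixed picture. Sirpa averaged 11.01 ± 0.58 in cKO and 10.69 ± 0.57 in WT (SD, n = 5 and 3), Itgax, which encodes CD11c, 11.16 ± 0.53 and 11.30 ± 0.44, and Irf4 8.43 ± 0.38 and 8.41 ± 0.63 in the same order. Sirpa and Irf4 were of like level in pDC, at 10.30 and 8.27 in cKO pDC and 10.05 and 8.48 in WT pDC, and so do not set cDC2 apart from them. Of the other cDC2 markers, Cd209a, Clec10a, Mgl2 and Itgam rose and Clec4a4 and Tlr7 fell, as given further on. Esam was close to the array median in both groups. Zeb2, S100a4 and Cd4 were not called, at differences of 0.75, 0.35 and −0.32. WT pDC exceeded WT cDC2 for Cd209a (10.84 against 10.49), Clec10a (8.59 against 5.78), Mgl2 (7.11 against 6.04) and Tlr7 (10.04 against 8.59). The same held for Zeb2 and Cd4, while Itgam, Clec4a4, S100a4 and Esam were higher in WT cDC2. Xcr1, which defines cDC1, lay below the array median of about 5.11 in cKO and 5.06 in WT, at 4.50 ± 0.15 in cKO and 4.52 ± 0.23 in WT. Clec9a and Batf3, also cDC1 markers, were above the median. Clec9a averaged 6.99 ± 0.53 in cKO and 6.86 ± 0.53 in WT cDC2, beside 11.05 and 10.97 in cKO and WT cDC1. Batf3 averaged 9.59 ± 0.50 in cKO and 9.30 ± 0.64 in WT cDC2, beside 10.38 and 9.82 in cKO and WT cDC1. Cadm1, Tlr3, Irf8, Cd8a and Itgae were all higher in cKO cDC2, by 0.60, 0.55, 0.51, 0.50 and 0.37, and none was called. Siglech, which defines pDC, was at 5.78 ± 0.25 in cKO and 5.89 ± 0.71 in WT. In cKO and WT pDC it was at 12.39 and 12.42. The pDC markers Ly6d, Ccr9 and Spib differed by −0.10, −0.04 and 0.17 in cDC2. Tcf4 and Bst2 were higher in cKO, by 0.91 and 0.82, and not called (adjusted p = 0.112 and 0.809 by limma).

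Of the 12157 genes, 190 were called (1.56%): 141 rose in cKO cDC2 (1.16%) and 49 fell (0.403%). The rises were also larger at the top: 31 exceeded 2 log2 units and 10 exceeded 3, against 5 falls beyond 2. The median rise was 1.44 and the median fall was −1.33. In 133 of the rises and 47 of the falls no cKO array overlapped a WT array, while over all genes 4.71% did not overlap: 3.27% had every cKO array above and 1.45% every cKO array below the WT arrays. Within the sets, 188 of the 190 kept their sign in all 3, and Ngfr and Tbxas1 turned in set B, which compares single arrays. Where no array overlaps, the sign within a set is fixed beforehand. Only the 10 called genes with overlap could turn, so the count is no separate test. The rises had medians of 1.66, 1.13 and 1.39 in sets A, B and C, and the falls medians of −1.38, −1.26 and −1.41. The median over all genes was 0.07, and 64.0% of genes lay above 0. In 26 of the rises the WT mean was below the array median, so their fold changes depend on values near the background.

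Leaving out 1 array changed how many genes were called. Without WT array 1 there were 107 calls (79 higher, 28 lower), without WT array 2 there were 123 (92 and 31), and without WT array 3 there were 135 (110 and 25). Leaving out 1 cKO array gave between 134 and 184.

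**Figure D2:**
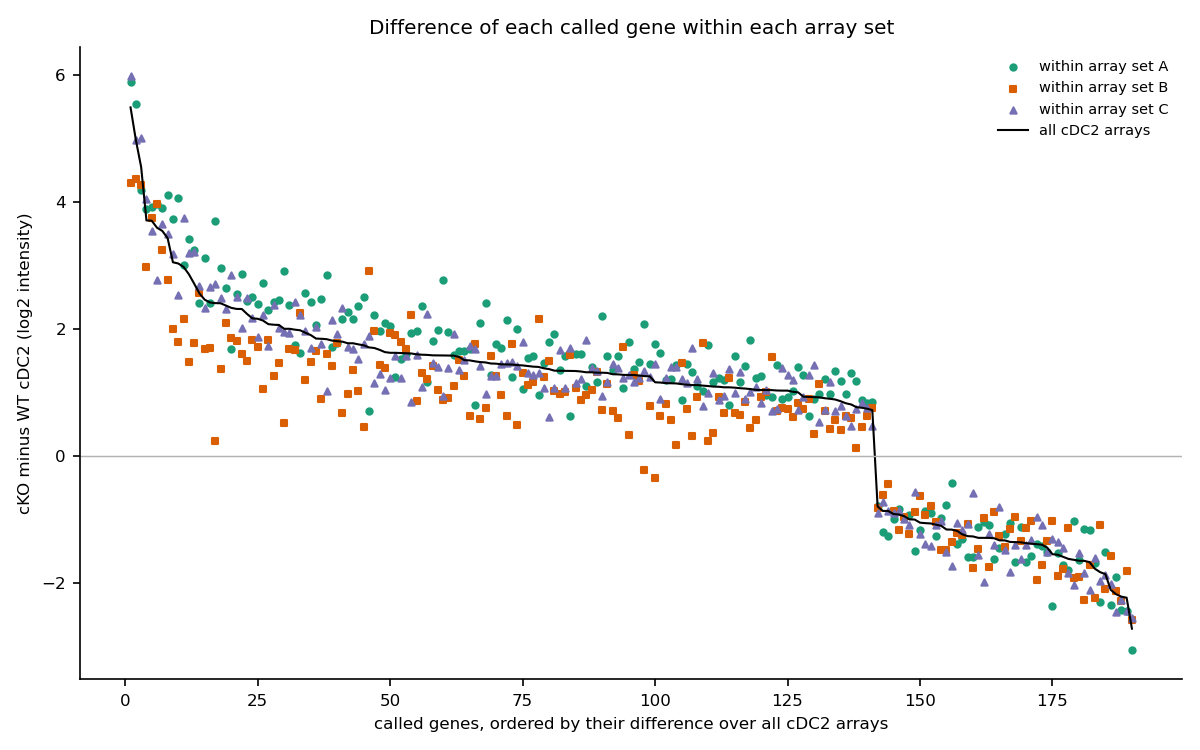
Difference in log2 intensity, cKO minus WT cDC2, for each of the 190 called genes, ordered by the difference over all 8 arrays (line), with the difference within each array set as points. Points of the 3 sets follow the line on both sides of 0. The genes were called on these same arrays, so their shared sign is no separate test. Points of set B (1 cKO against 1 WT array) lie lowest for many rises.

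The steepest rise belonged to Cd209d, a pathogen-binding lectin related to DC-SIGN. It read 10.70, 10.71, 10.47, 11.74 and 11.59 in cKO cDC2, against 4.81, 6.17 and 5.68 in WT cDC2. WT levels were close to the array median and the lowest cKO array lay far above the highest WT array, a 45.0-fold difference (5.49 ± 0.36, adjusted p = 1.22e-09). Pilra, an inhibitory receptor that binds sialylated proteins, read 10.17, 10.60, 10.38, 10.56 and 10.73 in cKO, against 4.84, 6.02 and 5.67 in WT. Its difference was 4.98 ± 0.40, or 31.5-fold (adjusted p = 4.86e-08). Both genes are shown with the 300 bases around their RefSeq transcription start (250 before and 50 after), on assembly GRCm38.p6, because they head the list. Beside them stand 3 called genes whose window does hold the letters of a BCL6-type motif.

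Cd209d promoter, chr8:3878450-3878749, minus strand, no match: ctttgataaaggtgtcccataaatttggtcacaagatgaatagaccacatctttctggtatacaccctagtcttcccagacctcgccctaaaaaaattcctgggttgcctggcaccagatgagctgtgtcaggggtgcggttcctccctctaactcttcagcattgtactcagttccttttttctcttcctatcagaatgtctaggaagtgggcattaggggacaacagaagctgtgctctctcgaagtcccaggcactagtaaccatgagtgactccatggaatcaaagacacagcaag
Pilra promoter, chr5:137836229-137836528, minus strand, no match: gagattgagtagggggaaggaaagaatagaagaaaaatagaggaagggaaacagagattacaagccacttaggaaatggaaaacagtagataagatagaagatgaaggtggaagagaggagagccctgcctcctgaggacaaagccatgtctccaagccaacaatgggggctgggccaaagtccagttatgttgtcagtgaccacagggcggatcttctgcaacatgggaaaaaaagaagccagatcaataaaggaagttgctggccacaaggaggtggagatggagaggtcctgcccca
Il7r promoter, chr15:9529827-9530126, minus strand, 1 match: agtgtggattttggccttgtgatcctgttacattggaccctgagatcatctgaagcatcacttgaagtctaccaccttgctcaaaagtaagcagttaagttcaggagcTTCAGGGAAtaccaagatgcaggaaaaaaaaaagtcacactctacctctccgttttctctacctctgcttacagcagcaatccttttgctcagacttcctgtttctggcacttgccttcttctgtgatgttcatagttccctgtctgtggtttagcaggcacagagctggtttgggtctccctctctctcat
Gbp7 promoter, chr3:142530086-142530385, plus strand, 2 matches: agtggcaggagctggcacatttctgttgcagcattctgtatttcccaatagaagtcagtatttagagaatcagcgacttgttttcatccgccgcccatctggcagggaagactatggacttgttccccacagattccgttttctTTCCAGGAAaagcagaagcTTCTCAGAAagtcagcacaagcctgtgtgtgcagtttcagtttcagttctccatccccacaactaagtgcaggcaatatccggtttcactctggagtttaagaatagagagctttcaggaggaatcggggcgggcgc
Pla2g7 promoter, chr17:43568201-43568500, plus strand, 1 match: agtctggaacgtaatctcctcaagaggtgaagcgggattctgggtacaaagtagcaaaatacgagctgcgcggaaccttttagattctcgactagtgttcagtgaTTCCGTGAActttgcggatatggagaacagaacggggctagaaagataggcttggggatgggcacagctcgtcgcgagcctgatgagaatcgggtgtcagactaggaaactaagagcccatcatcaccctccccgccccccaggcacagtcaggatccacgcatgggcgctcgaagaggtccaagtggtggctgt

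Capitals mark TTCNNNGAA, the palindrome shared by STAT and BCL6-type motifs. TTCCNNGAA, or TTCNNGGAA on the other strand, is the narrower BCL6-type form contained in it. RefSeq windows were matched for 9682 of the tested genes. TTCCNNGAA stood in 8 of the 108 rises with a window (7.41%), in 4 of the 40 falls (10.0%) and in 506 of all 9682 (5.23%). The wider form stood in 11 of 108 rises (10.2%), 4 of 40 falls (10.0%) and 776 of 9682 genes (8.01%). Shares in the called genes were a few percentage points above those in all genes, in the falls as in the rises, and no test was made of them. A match is a run of letters and not a measured site, and windows without one may be bound elsewhere.

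Capg, which caps actin filaments, read 10.17, 10.47, 10.23, 11.12 and 11.23 in cKO cDC2, against 6.14, 5.97 and 6.17 in WT cDC2. WT arrays lay close together and the difference was 4.55 ± 0.37, or 23.4-fold (adjusted p = 4.88e-08). Gfra2, the receptor for the neurotrophic factor neurturin, read 9.13, 9.63, 8.91, 9.41 and 9.68 in cKO, against 5.49, 5.94 and 5.50 in WT. It had the smallest p of all genes, at a difference of 3.71 ± 0.22, or 13.1-fold (adjusted p = 2.93e-10). Clec4n, which encodes the fungal receptor dectin-2, read 9.20, 9.80, 10.34, 10.63 and 10.67 in cKO, against 5.58, 6.58 and 7.10 in WT, a difference of 3.71 ± 0.36. These 3 genes, like Cd209d and Pilra, remained called in each alternative run that tested them, including with any cDC2 array left out. Gfra2 was tested in 21 of the 22 alternatives.

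Of the other large rises, 4 were in a cytokine and in receptors for cytokines, chemokines and lipids. Il6, the inflammatory cytokine, read 7.22, 7.82, 8.84, 9.18 and 9.38 in cKO, against 3.61, 5.60 and 5.62 in WT. Both groups were widely spread but did not overlap (3.54 ± 0.61, adjusted p = 0.00141). Ccr1, a receptor for inflammatory chemokines, was even across cKO arrays, at 7.53, 7.83, 7.86, 7.61 and 7.62, against 3.57, 5.09 and 4.12 in WT. Its difference was 3.43 ± 0.32, with WT arrays 1 and 3 below their array medians and WT array 2 just above. Il1rl2, the receptor for IL-36, read 7.95, 8.34, 5.84, 7.09 and 7.12 in cKO, against 4.09, 4.04 and 4.57 in WT, so that the single cKO array of set B lay lowest. Cysltr1, a receptor for cysteinyl leukotrienes, averaged 7.97 ± 0.45 in cKO and 4.99 ± 0.68 in WT (SD, n = 5 and 3).

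Fn1, which encodes fibronectin, read 10.21, 9.68, 8.90, 9.31 and 8.88 in cKO cDC2, against 6.21, 6.90 and 5.92 in WT cDC2 (3.05 ± 0.37, adjusted p = 1.76e-05). Pilrb1, an activating partner of Pilra, rose by 3.59 ± 0.32 and Cd33, a sialic acid-binding inhibitory receptor, by 2.46 ± 0.26. Tnip3, which binds the NF-kB inhibitor A20, averaged 8.58 ± 0.34 in cKO and 5.87 ± 1.01 in WT. Upb1, an enzyme of pyrimidine breakdown, averaged 7.45 ± 0.22 in cKO and 4.89 ± 0.09 in WT. Ak8, an adenylate kinase, averaged 7.03 ± 0.58 in cKO and 4.17 ± 0.40 in WT. WT means of Upb1, Ak8, Il6, Ccr1, Il1rl2 and Cysltr1 were below the array median.

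**Figure D3:**
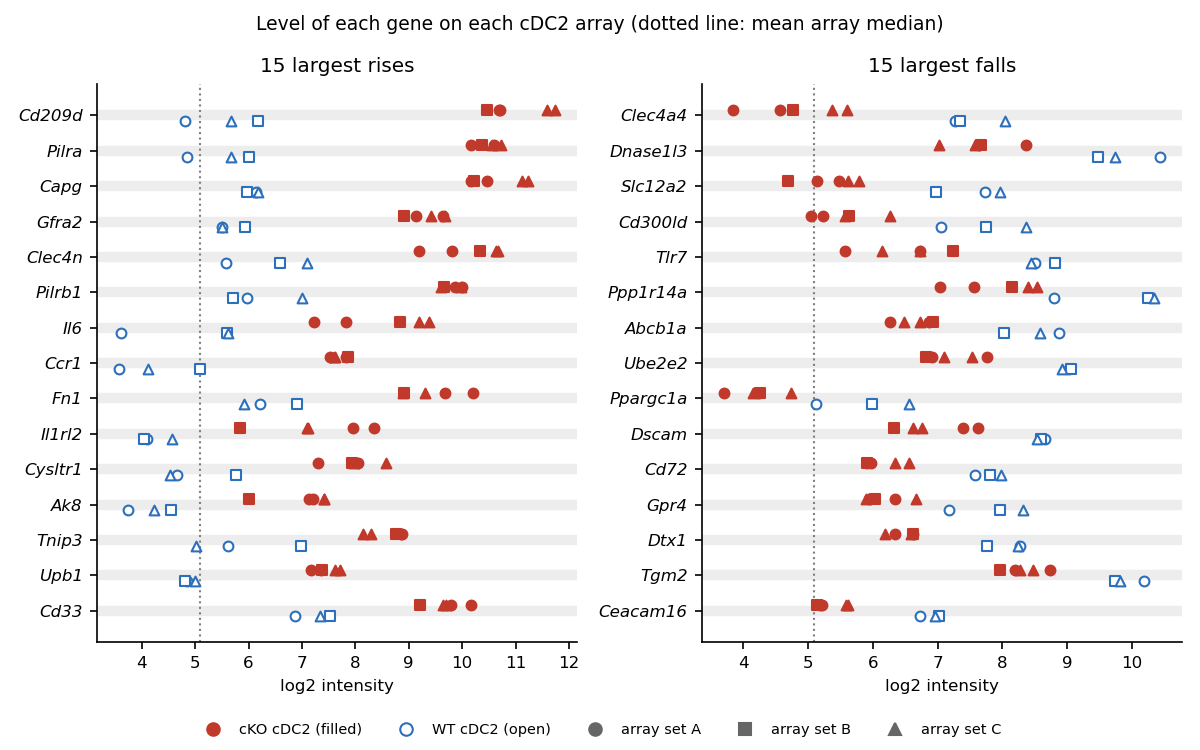
Log2 intensity of the 15 largest rises (left) and the 15 largest falls (right) on each cDC2 array, cKO filled and WT open, with the marker shape giving the array set and the dotted line the mean array median. All 30 genes were picked from called genes without overlap between cKO and WT arrays, so their separation was a condition of choice. Several rising genes lie near or below the median in WT only.

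C-type lectins, which bind sugars of microbes and host cells, moved in both directions. Of 28 tested, 6 rose and 2 fell, with a median difference of 0.50 against 0.07 over all genes. Over all genes 1.16% rose and 0.403% fell, and the same shares stand behind the count of each list that follows. The median of the lectins was 0.30 without WT array 1 and 1.0 with the stricter filter on low values. Klrb1b, an NK-type inhibitory lectin, was nearly constant in cKO at 8.83, 8.78, 8.81, 8.79 and 8.84, against 6.30, 6.98 and 6.65 in WT. No cKO array approached the WT range (2.17 ± 0.23). Clec10a, a galactose-type lectin, was far more variable and read 8.70, 8.38, 7.03, 8.36 and 8.49 in cKO and 4.83, 6.79 and 5.72 in WT. Clec10a differed by 3.71 in set A and 2.70 in set C but by 0.23 in set B, and without WT array 1 it was no longer called (adjusted p = 0.054). Mgl2, its close relative, showed the same spread, with 8.21, 7.86, 6.79, 8.74 and 8.64 in cKO and 5.12, 6.27 and 6.74 in WT (2.0 ± 0.41, adjusted p = 0.135 without WT array 1).

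Cd209a, the mouse DC-SIGN gene most used to mark cDC2, rose by 1.0 ± 0.25. It read 11.23, 11.49, 11.38, 11.68 and 11.68 in cKO, against 9.95, 10.56 and 10.96 in WT, and its call was lost in 6 of 8 fits that left out 1 array (adjusted p up to 0.394, without WT array 1). In cDC1 Cd209a rose by 3.20, and the effects differed by −2.20 ± 0.37 (adjusted p = 0.00334 by limma). On the falling side in cDC2 stood Clec4a4, the cDC2 marker recognised by the 33D1 antibody, and Clec12a, an inhibitory receptor for dead cells.

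Among immunoglobulin-type paired and sialic acid receptors, 6 of 29 rose and 2 fell (median 0.21). All 3 Pilr genes on the array rose: Pilrb2 read 6.42, 7.23, 5.79, 6.90 and 7.02 in cKO, against 3.95, 4.18 and 4.94 in WT (2.31 ± 0.32). These neighbouring genes on chromosome 5 are alike in sequence, so shared hybridisation between them was not tested. Cd200r1, the inhibitory receptor for CD200, rose by 1.58 ± 0.34 (adjusted p = 0.0964 without WT array 1), and by 0.60 with values floored at the array median, which was not called (adjusted p = 0.29). Cd300ld moved the other way, at 5.05, 5.23, 5.62, 6.27 and 5.56 in cKO, against 7.06, 7.75 and 8.37 in WT. That fall of −2.18 ± 0.29, in an activating receptor of the CD300 family, was called in every alternative that tested it. Lair1, an inhibitory receptor for collagen that pDC also carry, fell by 1.05 ± 0.21 (adjusted p = 0.0787 without WT array 1). Among Fc receptors, Fcgr3, a receptor for IgG complexes, was the single rise of 6 (1.59 ± 0.37, adjusted p = 0.148 without WT array 1).

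The largest fall was in Clec4a4. It read 3.85, 4.57, 4.77, 5.37 and 5.61 in cKO cDC2, against 7.27, 7.35 and 8.04 in WT cDC2. The cKO mean of 4.83 ± 0.69 was below the array median, and the WT level was 6.60-fold higher (difference −2.72 ± 0.28, adjusted p = 1.96e-06). Dtx1, a ubiquitin ligase induced by Notch signalling, read 6.61, 6.35, 6.62, 6.59 and 6.19 in cKO, against 8.28, 7.76 and 8.24 in WT. Its difference of −1.62 ± 0.17 was among the best separated of the falls (adjusted p = 2.32e-06).

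Tlr7, the endosomal sensor of single-stranded RNA, read 5.58, 6.73, 7.24, 6.14 and 6.72 in cKO, against 8.51, 8.82 and 8.45 in WT. No cKO array reached the WT range (−2.11 ± 0.32, adjusted p = 0.000368). Dnase1l3, a secreted nuclease that digests the DNA of dead cells, read 7.63, 8.37, 7.67, 7.03 and 7.57 in cKO, against 10.44, 9.48 and 9.74 in WT (−2.23 ± 0.35, adjusted p = 0.000557). These were the 2 called genes among 19 Toll-like receptors and adaptors, a list whose median was 0.27 and in which none rose.

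Other large falls were spread over transporters, adhesion and signalling. Slc12a2, a sodium, potassium and chloride cotransporter, read 5.14, 5.47, 4.69, 5.78 and 5.61 in cKO, against 7.74, 6.97 and 7.96 in WT (−2.22 ± 0.29). Abcb1a, a drug efflux pump, fell by 1.83 ± 0.25, the ubiquitin-conjugating enzyme Ube2e2 by 1.78 ± 0.29 and Cd72, an inhibitory coreceptor best known from B cells, by 1.65 ± 0.26. Lack of overlap between groups was a condition for naming these 4 genes, and each kept its call in every alternative that tested it. Dscam, a homophilic adhesion molecule of neurons, fell by 1.65 ± 0.24. Ceacam16, a secreted protein of the inner ear, fell by 1.56 ± 0.32 (adjusted p = 0.0576 without WT array 2).

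Tgm2, the tissue transglutaminase that crosslinks proteins, read 8.20, 8.73, 7.97, 8.27 and 8.47 in cKO, against 10.19, 9.74 and 9.82 in WT (−1.59 ± 0.22). Some large falls depended on single arrays. Ppp1r14a, an inhibitor of myosin phosphatase, fell by 1.86 ± 0.44 (adjusted p = 0.206 without WT array 2). Ppargc1a, a coactivator of mitochondrial genes, fell by 1.67 ± 0.37 to values below the array median (adjusted p = 0.165 without WT array 3). With values floored at the array median it differed by −0.78 (adjusted p = 0.62). Gpr4, a proton-sensing receptor, fell by 1.64 ± 0.41 (adjusted p = 0.271 without WT array 3). Pla2g7, which inactivates platelet-activating factor and whose promoter is printed above, fell by 1.44 ± 0.29 (adjusted p = 0.0945 without WT array 3). With floored values it differed by −0.40 (adjusted p = 0.889).

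**Figure D4:**
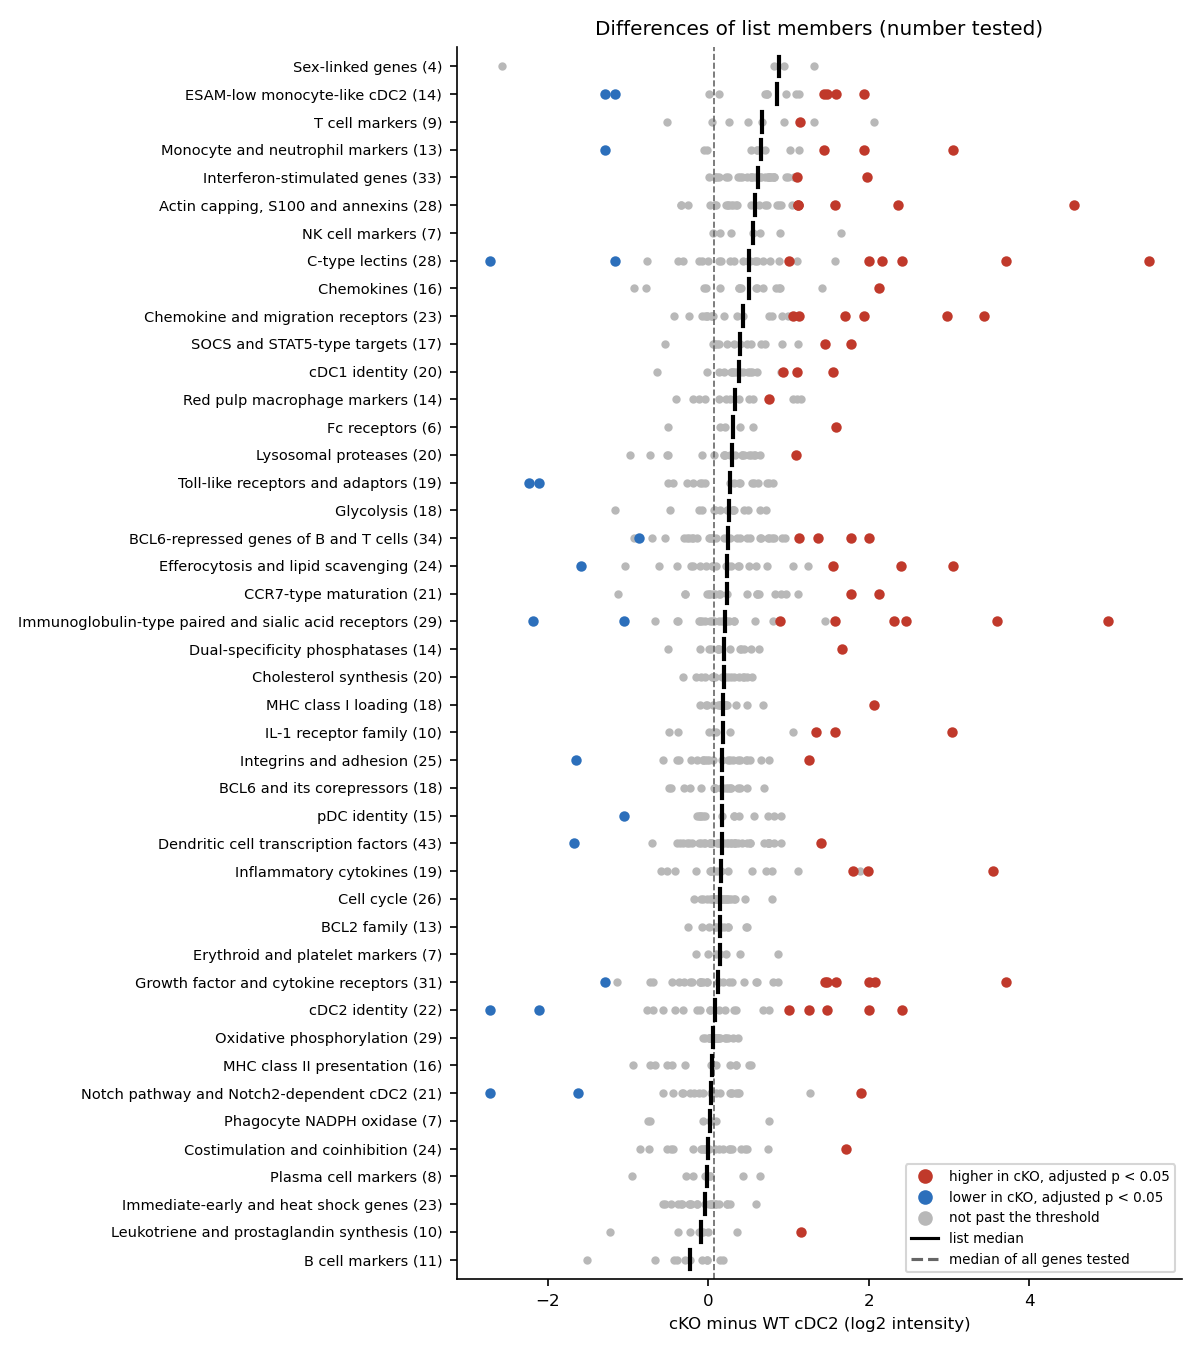
Difference in log2 intensity, cKO minus WT cDC2, of each tested member of 44 gene lists, with called rises in red, called falls in blue, the list median as a black bar and the median of all genes (0.07) as a dashed line. Most lists have medians between 0 and 0.7, and called genes of both directions share several lists.

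Genes that define cDC2 were not shifted as a whole. Of 22 on the identity list 5 rose and 2 fell, with a median of 0.08 against 0.07 over all genes. Csf1r, the receptor for CSF1, read 9.53, 9.90, 8.67, 9.25 and 9.36 in cKO, against 7.61, 8.10 and 7.88 in WT (1.48 ± 0.25, adjusted p = 0.00117). Within sets A, B and C it differed by 2.10, 0.58 and 1.42. Itgam, which encodes CD11b, averaged 9.67 ± 0.53 in cKO and 8.41 ± 0.25 in WT, a rise of 1.25 ± 0.27 that was not called without WT array 3 (adjusted p = 0.0908). Clec10a, Mgl2 and Cd209a were the other rises, and Clec4a4 and Tlr7 the falls. Zeb2, a transcription factor of cDC2, differed by 0.75 (adjusted p = 0.0873) and Esam, the adhesion molecule that marks the Notch2-dependent form, by −0.56 (adjusted p = 1.0), neither past the threshold.

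The Notch list of 21 genes held the falls of Clec4a4 and Dtx1 and 1 rise, and its median was 0.03. The rise was in Nrp2, a neuropilin that binds semaphorins and VEGF, with 7.47, 7.22, 6.93, 7.39 and 6.73 in cKO, against 4.92, 5.44 and 5.36 in WT (1.90 ± 0.20, adjusted p = 2.32e-06). Genes of the ESAM-low, monocyte-like cDC2 had a median of 0.85 over 14 tested, with 4 rises and 2 falls. Ccr2, the receptor that draws monocytes from bone marrow, read 7.70, 8.35, 7.78, 8.27 and 7.83 in cKO, against 5.46, 6.59 and 6.08 in WT (1.94 ± 0.27, adjusted p = 0.000128). Csf1r and Fcgr3 were 2 of the other rises. Lyz2, the myeloid lysozyme, was the weakest call among the named genes, at 9.27 ± 0.26 in cKO and 7.83 ± 0.77 in WT (adjusted p = 0.0481, and 0.447 without WT array 1). Clec12a and Csf3r, the G-CSF receptor, fell by 1.16 ± 0.22 and 1.29 ± 0.25, and neither was called without WT array 3 (adjusted p = 0.0664 and 0.0876). The list median was 0.46 without WT array 1 and 1.22 without WT array 3.

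Markers of monocytes and neutrophils overlap with that list, and 3 of 13 rose (Fn1, Ccr2 and Lyz2) and 1 fell (Csf3r). Their mean level ran from 6.30 to 8.17 over cKO arrays and from 5.70 to 7.61 over WT arrays, so the groups overlapped. The neutrophil genes S100a8 and S100a9 followed single arrays: S100a8 read 4.59, 5.82, 6.78, 8.03 and 6.62 in cKO and 4.38, 4.57 and 8.03 in WT. The list median was 0.69 in set A, 0.63 in set B and −0.50 in set C. What these cells contributed to Fn1, Ccr2 and Lyz2 was not tested.

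Cytokines that instruct T cells rose in 3 of 19 cases (median 0.16), and none fell. Il12b, the shared subunit of IL-12 and IL-23, read 8.95, 9.24, 8.51, 8.61 and 8.50 in cKO, against 7.34, 6.84 and 6.14 in WT. Its difference of 1.99 ± 0.29, or 3.97-fold, held in every alternative (adjusted p = 0.000188). Il6 was the largest of the 3. Il15, which sustains NK and memory T cells, rose by 1.81 ± 0.45 but was not called in 5 of 8 fits without 1 array (adjusted p up to 0.34, without WT array 1). Of 16 chemokines, with a median of 0.50 (0.23 without WT array 1), Ccl22 alone was called. Ccl22, a ligand of CCR4 that attracts regulatory T cells, read 8.51, 8.08, 7.35, 8.49 and 8.35 in cKO, against 5.57, 6.30 and 6.20 in WT (2.13 ± 0.29, adjusted p = 8.61e-05). Within sets A, B and C it differed by 2.72, 1.05 and 2.22.

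Among 23 receptors for chemokines and other migration cues 6 rose and none fell (median 0.43). Besides Ccr1, Cysltr1 and Ccr2, they included Cxcr6, the receptor for CXCL16, at 6.48, 6.64, 7.43, 6.70 and 7.57 in cKO and 4.35, 5.46 and 5.98 in WT (1.70 ± 0.31, adjusted p = 0.00217). Cxcr6 was not called in the cDC2 arrays alone (adjusted p = 0.0564 by limma) or without WT array 1 of each cell type (adjusted p = 0.0659 by limma). P2ry14, a receptor for UDP-glucose, was another rise. S1pr1, which lets lymphocytes leave tissue, rose by 1.13 ± 0.28 and was not called in 6 of 8 fits without 1 array (adjusted p up to 0.282, without WT array 3). Outside the lists and chosen after their values were seen, 2 nucleotide and orphan receptors of the same family stood out. Gpr171 read 9.41, 9.95, 10.35, 9.96 and 10.03 in cKO, against 7.61, 8.70 and 7.97 in WT (1.85 ± 0.21). P2ry13, a receptor for ADP, read 6.45, 7.20, 6.30, 7.23 and 7.15 in cKO, against 4.38, 4.80 and 4.70 in WT (2.24 ± 0.26).

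The IL-1 receptor family had 3 rises among 10 (median 0.18). Il1rl2 was the largest. Il18r1, a chain of the IL-18 receptor, rose by 1.58 ± 0.31 (adjusted p = 0.0964 without WT array 1). Irak3, which restrains IL-1 and Toll-like receptor signalling, rose by 1.34 ± 0.32 (adjusted p = 0.206 without WT array 1).

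Receptors for IL-2 and IL-7 rose, as Gfra2 did, in a list of 31 growth factor and cytokine receptors, of which 6 rose and 1 fell (median 0.12). Il7r, the receptor for IL-7 and TSLP, whose promoter is printed above, read 8.85, 8.82, 8.94, 8.79 and 9.32 in cKO, against 6.45, 7.25 and 7.12 in WT. The difference of 2.0 ± 0.23, or 4.01-fold, was of similar size in each set, at 2.38, 1.69 and 1.93. Il2rb, shared by the receptors for IL-2 and IL-15, read 9.30, 9.10, 7.93, 8.31 and 8.74 in cKO, against 6.90, 6.11 and 6.79 in WT (2.08 ± 0.30, adjusted p = 0.000183). Il2ra, the high-affinity chain CD25, read 7.45, 7.70, 7.41, 7.42 and 7.87 in cKO, against 5.82, 6.14 and 6.38 in WT (1.45 ± 0.25, adjusted p = 0.00132). In these 3 genes every cKO array lay above every WT array, as in 133 of the 141 called rises and in 3.27% of all genes.

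Some other called genes are best known from T cells, and no list stands behind them as a group. Il23r, the receptor for IL-23 (chosen after its value was seen), read 7.07, 7.24, 7.66, 6.05 and 6.88 in cKO, against 5.10, 5.72 and 5.24 in WT (1.62 ± 0.26, adjusted p = 0.000602). Gata3, the regulator of type 2 helper T cells, rose by 1.37 ± 0.28 (adjusted p = 0.101 without WT array 2). Cd226, an adhesion receptor of T and NK cells also chosen after its value was seen, rose by 1.84 ± 0.38 (adjusted p = 0.156 without WT array 1). Thy1 rose by 1.15 ± 0.27 (adjusted p = 0.132 without WT array 1) and was the 1 call among 9 T cell markers, whose median was 0.67.

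The T cell markers are given beside these genes. Their mean level ran from 6.19 to 6.71 over cKO arrays and from 5.64 to 6.0 over WT arrays, without overlap. Cd3g, a chain of the T cell receptor complex, read 7.08, 7.68, 8.76, 8.07 and 7.96 in cKO, against 5.39, 6.04 and 6.13 in WT (2.06, adjusted p = 0.079). Cd3d read 5.96, 6.17, 7.33, 7.17 and 7.08 in cKO and 5.09, 5.76 and 5.43 in WT, and Cd3e 6.45, 6.84, 6.71, 6.73 and 6.52 in cKO and 5.88, 5.83 and 6.22 in WT. None of these 3 was called, and in each every cKO array lay above every WT array, as in 3.27% of all genes. Of 7 NK cell markers none was called (median 0.56): Ncr1 averaged 6.30 ± 0.62 in cKO and 4.66 ± 0.27 in WT (adjusted p = 0.138), and Klrk1 7.73 ± 0.20 and 6.83 ± 0.49 in the same order (adjusted p = 0.0965). Ncr1 was called in 4 of 21 alternatives (adjusted p = 0.034 in the cDC2 arrays alone and 0.0355 with 3 array sets) and Klrk1 in 5 of 22 (0.0149 with 3 array sets). The NK list median was 0.07 without WT array 1 and 1.16 without WT array 2. Cd3g, Cd3d and Cd3e were not at background in cKO, and the part of T or NK cells in the rises of Il7r, Il2rb, Il2ra, Il23r, Cxcr6, Gata3 and Thy1 was not tested.

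In the list of actin capping, S100 and annexin genes the rises were Capg, Ahnak, Vim, S100a10 and Anxa3. Of 28 actin capping, S100 and annexin genes 5 rose and none fell. Of the 28, 25 lay above 0, beside 64.0% of all genes, and the median was 0.58. S100a10, the partner of annexin A2, read 11.55, 11.89, 12.19, 12.93 and 12.82 in cKO, against 9.08, 10.10 and 10.56 in WT. Its 5.16-fold rise (2.37 ± 0.46) was not called without WT array 1 (adjusted p = 0.0787). Ahnak, a giant scaffold that binds the same complex, read 7.81, 7.85, 7.57, 8.05 and 7.92 in cKO, against 6.24, 6.47 and 6.06 in WT (1.58 ± 0.25). Vim, the intermediate filament vimentin, read 11.73, 11.76, 11.68, 11.91 and 11.77 in cKO, against 10.30, 10.95 and 10.69 in WT (1.12 ± 0.19). The list median was 0.80, 0.31 and 0.43 in sets A, B and C.

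A further 4 called genes were chosen after their values were seen and stand for no group. Tiam1, which activates Rac, read 8.60, 8.83, 7.38, 8.43 and 8.44 in cKO, against 6.31, 5.68 and 5.77 in WT (2.42 ± 0.26, adjusted p = 3.63e-06). Dock1, the Rac activator of engulfment, averaged 7.21 ± 0.56 in cKO and 5.37 ± 0.16 in WT (1.85 ± 0.29). Dab2, an endocytic adaptor, read 7.53, 8.26, 7.30, 7.04 and 7.25 in cKO, against 5.35, 5.50 and 4.64 in WT (2.32 ± 0.28). Fmnl2, an actin-nucleating formin, rose by 1.34 ± 0.25 and fell just short of a call without WT array 3 (adjusted p = 0.05).

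Genes for taking up dead cells and lipids were split, with 3 rises and 1 fall among 24 (median 0.24). Mertk, a receptor for apoptotic cells, read 6.39, 6.81, 5.74, 6.53 and 7.26 in cKO, against 3.65, 4.36 and 4.41 in WT, where it was below the array median (2.40 ± 0.33, adjusted p = 0.000105). Cd36, a scavenger receptor for oxidised lipids, read 5.46, 5.82, 5.59, 6.26 and 6.33 in cKO, against 3.98, 4.07 and 4.95 in WT (1.56 ± 0.27). With values floored at the array median Mertk differed by 1.49 and Cd36 by 0.83, both still called. Fn1 was the third rise and Tgm2 the fall. Selenop, a secreted selenium carrier, and Mpeg1, the pore-forming protein perforin-2, rose by 1.08 ± 0.19 and 1.07 ± 0.19 and were also chosen after their values were seen. Mpeg1 was not called after quantile normalization (adjusted p = 0.0793 by limma). Of 14 red pulp macrophage markers 1 rose (median 0.33): Cd163, the haemoglobin scavenger receptor, at 5.18 ± 0.16 in cKO and 4.42 ± 0.10 in WT, near or below the array median. Its call was lost in 6 of 21 alternatives, among them without WT array 1 (adjusted p = 0.11) and with floored values (0.17, adjusted p = 1.0). C1qa, abundant in macrophages, read 4.95, 4.89, 4.96, 5.29 and 5.57 in cKO and 4.41, 4.93 and 4.92 in WT, near the array median on all 8. The mean level of the 14 markers ran from 5.68 to 6.32 over cKO arrays and from 5.42 to 5.93 over WT arrays. Of the 14, 10 lay above 0, beside 64.0% of all genes, and 3 were below the array median in both groups. The largest difference among them, 1.16, was not called.

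Interferon-stimulated genes leaned one way with few calls. All 33 tested had differences above 0, with a median of 0.61, and 2 were called. Gbp3, an interferon-inducible GTPase, read 6.92, 7.55, 7.52, 6.98 and 7.13 in cKO, against 5.62, 5.27 and 4.84 in WT (1.98 ± 0.35, adjusted p = 0.00185). Slfn1, of the Schlafen family, rose by 1.11 ± 0.26 (adjusted p = 0.183 without WT array 1). The list median was 0.28, 0.58 and 0.78 in sets A, B and C, and it was 0.90 in cDC1 and 0.84 in pDC. Gbp7 and Gbp5, relatives of Gbp3 outside the list that were chosen after their values were seen, rose by 2.33 ± 0.41 and 1.62 ± 0.31. Gbp7 read 7.79, 8.55, 6.72, 8.21 and 8.36 in cKO, against 6.49, 4.85 and 5.43 in WT. Gbp5 was not called without WT array 2 (adjusted p = 0.0612).

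MHC class II genes showed no call among 16, with a median of 0.04. The largest differences were −0.93 for H2-Eb2 (adjusted p = 0.0763), a class II beta chain, and −0.73 for the processing protease Lgmn (adjusted p = 0.359). H2-Eb2 was called in 5 of 22 alternatives (adjusted p = 0.0285 after quantile normalization, 0.0487 after median centring and 0.0191 with 3 array sets) and Lgmn in 1 (0.0397 with 3 array sets). The class I loading list of 18 had 1 rise, in Cd1d1, which presents lipids to NKT cells and read 7.59, 7.86, 7.66, 8.26 and 8.24 in cKO, against 5.29, 6.41 and 5.86 in WT (2.07 ± 0.25, adjusted p = 1.97e-05). Among 24 costimulatory and coinhibitory genes (median −0.01), Tnfsf4, which encodes OX40 ligand, rose by 1.71 ± 0.27, to 6.0 ± 0.59 in cKO, against 4.29 ± 0.53 in WT. With values floored at the array median it differed by 0.94 and was not called (adjusted p = 0.0517). The list of CCR7-type maturation genes had 2 rises among 21 (median 0.23), Ccl22 and Socs2.

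Of 34 tested genes that BCL6 represses in B and T cells, 4 rose (Il7r, Socs2, Gata3 and S1pr1), beside 1.16% of all genes. Tbx21, the regulator of type 1 helper T cells, fell by 0.87 ± 0.22 (adjusted p = 0.0403 by limma), and 29 were not called. Of the list, 24 lay above 0, beside 64.0% of all genes. The list median was 0.25, against 0.07 over all genes. Socs2, a feedback inhibitor induced by STAT5, read 8.87, 8.50, 8.54, 8.90 and 9.32 in cKO, against 6.53, 7.19 and 7.43 in WT (1.77 ± 0.29, adjusted p = 0.000914). It and Il2ra were the rises among 17 SOCS and STAT5-type genes (median 0.40), of which 16 lay above 0. Prdm1, a textbook target in B cells, averaged 6.39 ± 0.39 in cKO and 5.74 ± 0.34 in WT and was not called (adjusted p = 0.836). Of 18 genes for BCL6 and its corepressors none was called (median 0.17). Bcl6 itself had the largest difference, and Hdac9, a histone deacetylase, was at −0.49 (adjusted p = 0.638).

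MiR-155, an inflammation-induced microRNA of myeloid cells, was read through its hairpin (Mir155, chosen after its value was seen). It was at 7.34, 7.06, 7.65, 7.15 and 7.41 in cKO, against 5.26, 5.44 and 6.43 in WT, a rise of 1.61 ± 0.40 (adjusted p = 0.0395). The call was lost in 7 of 8 fits without 1 array (adjusted p up to 0.271, without WT array 1). The probe set does not tell the arms apart, and both mature sequences, from RefSeq on GRCm38.p6, are printed with their seeds (bases 2 to 8) in capitals because the seed names the targets each could have.

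mmu-miR-155-5p, chr16:84714143-84714165, plus strand: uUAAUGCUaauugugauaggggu
mmu-miR-155-3p, chr16:84714182-84714202, plus strand: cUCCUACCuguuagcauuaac

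Of 43 transcription factors of dendritic cells 1 rose and 1 fell. Rara, the retinoic acid receptor alpha, rose (7.76, 8.05, 7.30, 7.56 and 7.80 in cKO and 6.32, 6.14 and 6.40 in WT; 1.41 ± 0.27) and Ppargc1a fell. Genes of cDC1 identity had 3 rises among 20 (median 0.38, and 0.24 without WT array 1), in Cd36, in the acid amidase Naaa (1.10 ± 0.25, adjusted p = 0.183 without WT array 1) and in the endosomal GTPase Rab7b (0.93 ± 0.23, adjusted p = 0.271 without WT array 3). Of the 20 cDC1 identity genes 18 lay above 0, beside 64.0% of all genes tested. In pDC identity genes, Lair1 was the 1 call among 15 (median 0.17).

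Smaller lists held single calls. Integrins and adhesion genes had the rise of Itgam and the fall of Dscam among 25 (median 0.17). Dusp7, a phosphatase of ERK, was the rise among 14 dual-specificity phosphatases (1.67 ± 0.43, adjusted p = 0.302 without WT array 2). Tbxas1, thromboxane synthase, was the rise among 10 leukotriene and prostaglandin genes (1.16 ± 0.29, adjusted p = 0.19 without WT array 1), and Lamp1, a lysosomal membrane protein, the rise among 20 lysosomal genes (1.09 ± 0.27, adjusted p = 0.247 without WT array 2). None was called among 23 immediate-early or heat shock, 7 NADPH oxidase, 13 BCL2 family, 26 cell cycle, 20 cholesterol synthesis, 18 glycolysis and 29 oxidative phosphorylation genes. Their medians ran from −0.04 to 0.25, and for the cell cycle list it was −0.53, 0.20 and 0.50 in sets A, B and C. The largest single differences there were −1.16 for the glucose transporter Slc2a3 (adjusted p = 0.385) and 0.79 for cyclin Ccne2 (adjusted p = 0.766).

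Markers of B cells, plasma cells and red cells gave no call. The 11 B cell markers had a median of −0.23 and mean levels of 4.89 to 5.44 in cKO and 5.24 to 5.63 in WT, with 6 of them below the array median in both groups. Ms4a1, which encodes CD20, read 4.49, 3.59, 3.87, 4.93 and 4.67 in cKO, against 5.76, 5.30 and 6.40 in WT (−1.51, adjusted p = 0.212). It was called in 4 of 21 alternatives, with adjusted p = 0.0259 with 2 array sets, 0.0132 with 3, and 0.0227 and 0.0205 with the random and the fixed replicate block. This difference stands beside the fall of Cd72, which B cells carry too, and its part in that fall was not tested. Blnk, an adaptor of the B cell receptor chosen after its value was seen, moved the other way, at 6.32, 6.32, 6.30, 6.63 and 6.63 in cKO and 4.51, 4.89 and 5.16 in WT (1.58 ± 0.24).

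The last 5 genes were likewise chosen after their values were seen and form no list. Sema4a and Sema6d, membrane semaphorins, rose by 1.74 ± 0.34 (adjusted p = 0.0708 without WT array 1) and 1.60 ± 0.31. Hbegf, an EGF receptor ligand, rose by 1.76 ± 0.38 (adjusted p = 0.156 without WT array 1). Wls, the carrier that lets cells secrete Wnt proteins, read 7.44, 6.88, 7.09, 7.50 and 7.51 in cKO, against 5.50, 5.84 and 5.99 in WT (1.51 ± 0.23). Strip2, of the striatin-interacting family, read 7.22, 7.09, 6.91, 6.97 and 6.96 in cKO and 5.59, 5.78 and 5.80 in WT (1.31 ± 0.20, adjusted p = 0.000376).

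To learn which changes differed from those in cDC1, the genotype effects were compared directly. In cDC1, 101 genes were called (0.831%): 99 rose (0.814%) and 2 fell (0.0165%). Of the 141 rises in cDC2, 40 also rose in cDC1, which is 28.4% of the cDC2 rises and 40.4% of the cDC1 rises. They included Cd209d, Pilra, Capg, Ccr1, Cd33 and Klrb1b: Cd209d rose by 4.97 in cDC1 beside 5.49 in cDC2, and Pilra by 6.29 beside 4.98. Cd33 rose by 4.68 in cDC1 beside 2.46 in cDC2, and its effects differed by −2.22 ± 0.37 (adjusted p = 0.0034 by limma). The test of the difference itself called 34 genes (0.28%), 13 with the higher effect in cDC2 (0.107%) and 21 with the lower (0.173%). Of these, 15 were rises and 9 were falls in cDC2.

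Gfra2 had the largest difference in favour of cDC2. It was at 9.35 in cKO and 5.64 in WT cDC2, beside 5.07 in cKO and 5.01 in WT cDC1, and the effects differed by 3.64 ± 0.31 (adjusted p = 3.65e-07). Fn1 (3.27 ± 0.54) and Myof, a membrane repair protein (2.59 ± 0.32, adjusted p = 0.000139), also had the higher effect in cDC2. For Fn1 the adjusted p was 0.00334, and it was 0.067 without WT array 1 of each cell type. Il12b stood at 9.94 in cKO and 9.96 in WT cDC1, so its rise in cDC2 differed by 2.01 ± 0.42 (adjusted p = 0.0338). Il2rb differed by 2.12 ± 0.44 (adjusted p = 0.0284), with cDC1 at 5.61 in cKO and 5.66 in WT.

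Of the 49 falls in cDC2 none was called as a fall in cDC1, where 2 genes fell in all, and for 9 of the 49 the difference between the effects was called. Abcb1a and Dnase1l3 had no called difference of effects (adjusted p = 0.49 and 0.219). Tgm2 and the inhibitory collagen receptor Lair1 rose in cDC1. Tgm2 was at 7.62 in cKO and 6.05 in WT cDC1, and its effects differed by −3.16 ± 0.32 (adjusted p = 5.84e-06). Clec4a4, Slc12a2, Dtx1 and Tlr7 differed by −2.52 ± 0.40, −2.52 ± 0.42, −1.61 ± 0.25 and −2.22 ± 0.47, all past the threshold.

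Some genes with a called difference between the cell types were not called in cDC2 at all. Ccl24, an eosinophil-attracting chemokine, was at 11.26 in cKO and 4.81 in WT cDC1, against 5.20 in cKO and 4.79 in WT cDC2 (difference of effects −6.04 ± 0.34). Cybb, the NADPH oxidase subunit gp91phox, was at 9.40 in cKO and 5.19 in WT cDC1, and in cDC2 at 10.31 in cKO and 9.55 in WT (−3.45 ± 0.48). Cd300lf and Cd22, inhibitory receptors, differed by −2.92 ± 0.41 and −2.89 ± 0.37. WT cDC2 already had Cybb, Cd300lf and Cd22 at levels above those of WT cDC1.

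Against pDC the effects differed for 59 genes (0.485%), 44 higher (0.362%) and 15 lower (0.123%) in cDC2. In pDC 4 genes were called (0.0329%), and none of them was a cDC2 rise. All 44 of the higher were rises in cDC2, and 13 of the 15 lower were falls. Cd209d was high in pDC of both genotypes, at 10.68 in cKO and 11.14 in WT, and its effects differed by 5.95 ± 0.50 (adjusted p = 2.5e-07). Pilra differed by 4.85 ± 0.56, Gfra2 by 3.95 ± 0.31, Capg by 3.81 ± 0.52, Clec4n by 3.56 ± 0.51 and Ccr1 by 3.41 ± 0.46, all past the threshold. Il6 (3.83 ± 0.86, adjusted p = 0.0418) and Il1rl2 (3.05 ± 0.57, adjusted p = 0.00832) were less steady: Il6 had an adjusted p of 0.225 without WT cDC2 array 1, and Il1rl2 one of 0.139 without WT array 1 of each cell type. Il7r stood at 9.63 in cKO and 9.84 in WT pDC, above both cDC2 groups.

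**Figure D5:**
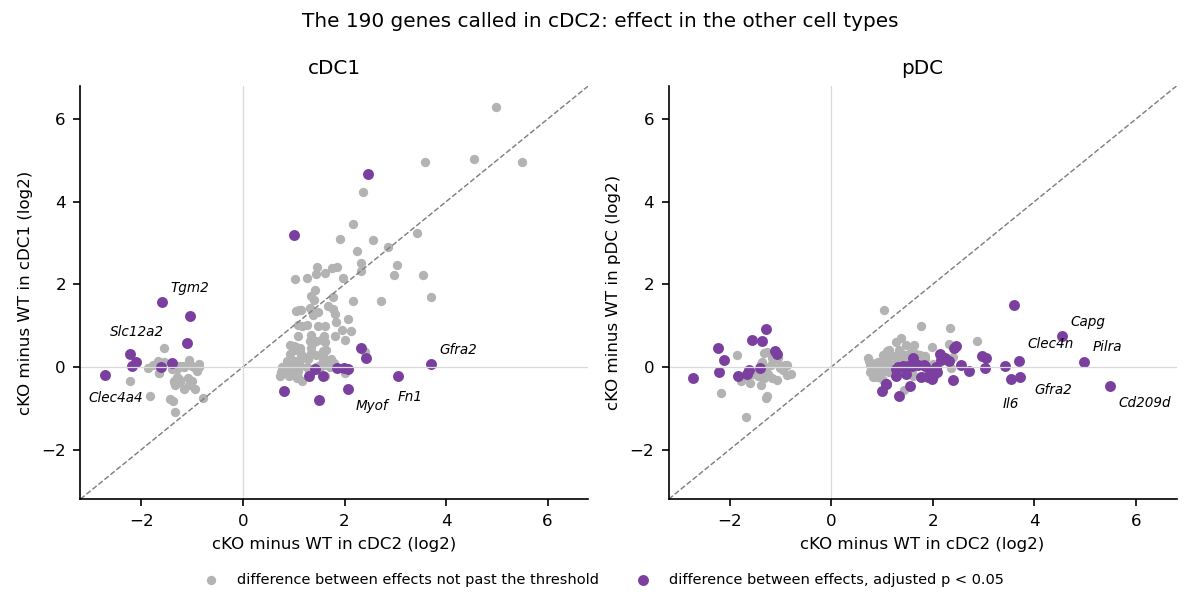
Genotype effect (cKO minus WT, log2 intensity) of the 190 genes called in cDC2, on the horizontal axis, against the effect in cDC1 (left) and pDC (right), with the dashed line marking equal effects. Purple points have a called difference between the effects; in cDC1 several of the largest rises lie near the line, and in pDC most points lie near 0.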

How the data were processed

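Mouse Gene 1.0 ST arrays of sorted spleen dendritic cells were deposited as gene-level intensities on a linear scale, from 3.785 to 13980.744, which the authors made with Affymetrix Expression Console and RMA, per the submitters' processing notes. The intensities were set to log2. Of 28853 probe sets, 21789 name 1 gene in the platform annotation, 1621 name several and 5443 are unnamed here. For genes with several probe sets the one with the highest mean stood. The 12157 genes above the array median on at least 3 of 23 arrays were fitted with limma 3.58.1 in R 4.3.3 (6 group means, 17 residual degrees of freedom, Benjamini-Hochberg, adjusted p below 0.05). Arrays were grouped by their labels.

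The members and lists were chosen with earlier results of these data known, and the 3 array sets were found after the data were examined. Named genes were Bcl6, the 15 largest called rises and falls without overlap, up to 4 called members of each list (or 2 uncalled where none was called), the 8 largest differences from cDC1 and from pDC, and markers shown as checks. Another 24 were chosen after their values were seen, and so were a few further list members. On arrays, differences of genes near background tend to be understated. Alternatives changed the block, array sets, scaling, filter, floor, probe set choice, variance model, weights and arrays. Same-numbered cDC2 arrays had correlations of 0.681, −0.0802 and −0.0308, so the numbers were not treated as pairs. Data were also simulated for cKO against WT cDC2 over 12157 genes. There, 50% of changes of 1 log2 unit and 98% of those of 2 were recovered, with 9 false calls. The simulated noise was independent between arrays and held no array sets, so these rates may not carry over to the real arrays.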

Additional observations from a re-analysis of the deposited data

Results flagged for a closer look

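Among the 5 cKO cDC2 arrays some named genes had 1 array far from the others, a pattern that chance gives in about 1 in 20 groups. Array 3 was the low one for Ak8 (6.015), Clec10a (7.025), Gata3 (6.04), Bid (6.085), Tbxas1 (5.699) and Tiam1 (7.379). Array 2 was the high one for Irak3 (8.157), Cd22 (8.683), Mpeg1 (10.73) and Selenop (9.902). Il7r was highest on array 5 (9.322) and Jchain on array 1 (5.384). Array 3 is the cKO array of set B, and the part of the set in these values was not tested.

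Genotype effects differed between cell types by a test of the difference itself. Against cDC1, the effect in cDC2 was higher for Gfra2 (3.642), Fn1 (3.271) and Myof (2.593), and lower for Ccl24 (−6.039), Cybb (−3.445), Tgm2 (−3.161), Cd300lf (−2.916) and Cd22 (−2.888). Against pDC, it was higher for Cd209d (5.952), Pilra (4.85), Gfra2 (3.953), Il6 (3.835), Capg (3.811), Clec4n (3.559), Ccr1 (3.41) and Il1rl2 (3.055).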

How the results depend on the processing

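None of the 95 named called genes changed sign in an alternative, while 5 of 30 named genes that were not called and 18 of 44 list medians crossed 0. With values floored at the array median 7 of the 95 moved by over 1.5 times and 5 of these lost their call. Of the 95, 50 kept their call in all alternatives that tested them and 45 lost it in at least 1. The cause of the changes below was not tested. A fit on the 8 cDC2 arrays alone called 131 genes (98 higher, 33 lower), 121 of them among the 190. In that fit 22 of the 95 named called genes lost their call. With the replicate number as a fixed replicate block, 100 genes were called in cDC2 (65 higher), 85 of them among the 190, 22 against cDC1 (7 higher) and 23 against pDC (20 and 3). With that block 31 of the 95 named called genes lost their call, among them Vim, Gbp7, Selenop and Mpeg1. The replicate numbers do not pair the arrays. As a random replicate block (correlation 0.341) they gave 91 lower in cDC2 among 275, 69 against cDC1 (29 and 40) and 103 against pDC (75 and 28). With 2 array sets as a term there were 344 (250 and 94), 95 (46 and 49) and 116 (82 and 34) calls for cDC2, against cDC1 and against pDC. With 3 sets, chosen after seeing the data, there were 559 (369 and 190), 148 (71 and 77) and 218 (146 and 72), and all 190 were kept. Quantile normalization gave 80 lower in cDC2 among 224, and 31 lower against pDC. The stricter filter, with fewer genes tested, gave 124 (93 and 31), 22 (8 higher) and 38 (7 lower). Array weights gave 72 against cDC1 (27 and 45). Without WT array 1 of each cell type there were 106 (77 and 29), 17 (5 and 12) and 24 (19 and 5). Leaving out 1 array gave 107 to 184 in cDC2 (79 to 148 higher, 25 to 40 lower), 22 to 37 against cDC1 (7 to 17, 15 to 23) and 39 to 66 against pDC (30 to 51, 8 to 22). The median over all genes was 0.07 as deposited and −0.0074 after quantile normalization. Dim genes and 3 WT arrays limit the precision.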
